A study of Mus musculus with 3 samples.

Results

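The genes Cd3e, Cd3d, Cd3g, Cd4, Cd8a, Cd8b1, Cd5 and Cd6, which encode surface proteins of T cells, were described in the open chromatin of natural killer cells. They are 8 of 21853 protein-coding genes of the mouse annotation (assembly mm10, GENCODE). Each was taken with its gene body and 30 kb on each side. The 3 Cd3 genes were treated as 1 locus, and windows that overlapped were joined, which left 4 loci of 472.9 kb in all: Cd3, Cd4, Cd8 (Cd8a with Cd8b1) and Cd5/Cd6.

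Natural killer cells were profiled by DNase-seq as primary cells of male B6CASTF1/J mice of 2 months, in 3 biological replicates of 1 group. All replicates carry the same donor label, separate animals are not mentioned, and the labels name no sort or gate. The spread between replicates may therefore be technical. DNase I cuts DNA that nucleosomes leave free. Clusters of cuts were called as peaks, and short protected stretches, called footprints, are where a bound protein can shield DNA. Replicates 1, 2 and 3 held 40484, 84564 and 81854 peaks and 101990, 239483 and 222990 footprints. The peak signal has no stated scale between libraries, so each peak is also given as a percentile among all peaks of its own library. The read depth is unknown from these files. With 1 group and 3 replicates no test between conditions could be made, and values are set beside those of all genes, peaks or sites.

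The CD3 chains are the invariant signalling subunits that carry the T cell receptor to the surface. CD4 and CD8 are its co-receptors for MHC class II and class I, and CD5 and CD6 are scavenger receptor family proteins that tune its signal. Mature natural killer cells signal without a T cell receptor and are usually recognised by the lack of surface CD3. They share the zeta chain encoded by Cd247, and many signalling proteins downstream of it, with T cells. In mouse, Cd8a is also used by some dendritic cells and Cd5 by B-1 cells. Each of these genes is known to be governed by distant elements as well as by its promoter. Those of mouse Cd4 include an enhancer upstream and a silencer in an intron, and those of Cd8 include several enhancers around the gene pair.

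The stretches of DNA that carried the widest footprints of the loci are shown first, since the contrast between wide and narrow footprints recurs in all 4. At 10 sites outside exons and promoters a footprint of 25 bp or more was called, and 9 of these sites had one in at least 2 replicates. The widest footprint of each of the 9 is printed 5′ to 3′ in lower case. Capitals mark the letters AGGNGGC, the core of the site of CTCF, a protein that anchors chromatin loops. It was searched on both strands, and the strand is given in brackets.
chr6:124903727-124903771 (+), 15.5 kb upstream of Cd4: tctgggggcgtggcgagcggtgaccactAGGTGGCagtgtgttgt
chr6:124847420-124847468 (+), 40.8 kb downstream of the Cd4 start: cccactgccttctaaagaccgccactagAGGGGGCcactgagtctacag
chr6:124859906-124859937 (+), 28.3 kb downstream of the Cd4 start: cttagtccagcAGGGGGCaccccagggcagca
chr19:10709518-10709561 (-), 29.5 kb downstream of the Cd5 start: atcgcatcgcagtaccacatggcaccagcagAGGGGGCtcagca
chr19:10714865-10714895 (+), 24.1 kb downstream of the Cd5 start: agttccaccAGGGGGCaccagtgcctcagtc
chr19:10831643-10831671 (+), 1.58 kb upstream of Cd6: cggctgagggcgccctctagtgaagagtg
chr9:44967001-44967047 (+), 13.4 kb downstream of the Cd3g start: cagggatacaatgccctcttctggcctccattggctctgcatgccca
chr9:45022968-45023010 (+), 13.4 kb upstream of Cd3e: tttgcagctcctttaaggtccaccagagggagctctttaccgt
chr6:71298936-71298964 (+), 23.8 kb upstream of Cd8b1: gcctgcagaggccagcagagggcgttgaa
The letters lay in 5 of the 9 stretches, in all 3 at Cd4 and both on the Vps37c side of Cd5. Only these exact letters were searched, and close variants were not. The stretches without capitals are therefore not shown to lack a CTCF site. The sequence is that of the reference assembly, so that alleles of the CAST parent may differ.

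In all 3 replicates, a peak touched the promoter of 1 of the 8 genes. As promoter counted the 500 bp before and after any annotated start of a coding transcript, and 1 bp of a peak inside it made it open. By that count 1, 6 and 3 of the 8 promoters were open in replicates 1, 2 and 3, against 51.7%, 58.8% and 58% of all protein-coding genes. In all 3 replicates 1 of 8 was open, beside 51.3% of all genes, and in at least 1 replicate 6 of 8, beside 60.4%. In no replicate was a peak found at 2 of 8, Cd4 and Cd8a, beside 39.6%. Intervals at an FDR of 0.05 or less touched the same numbers, 1, 6 and 3, beside 52.8%, 60% and 59%. All 8 promoters are poor in CpG, with ratios of observed to expected CpG between 0.161 and 0.357 against a median of 0.561 over all genes. Among the 8625 genes with a ratio below 0.4, 14.2%, 20.5% and 20.1% were open in replicates 1, 2 and 3, and 13.9% in all 3 and 22.1% in at least 1. Replicate 2 therefore had 6 of 8 open beside 20.5% of CpG-poor genes, and replicate 1 had 1 of 8 beside 14.2%. Without replicate 2, 3 of the 8 were open in at least 1 replicate.

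**Figure D1:**
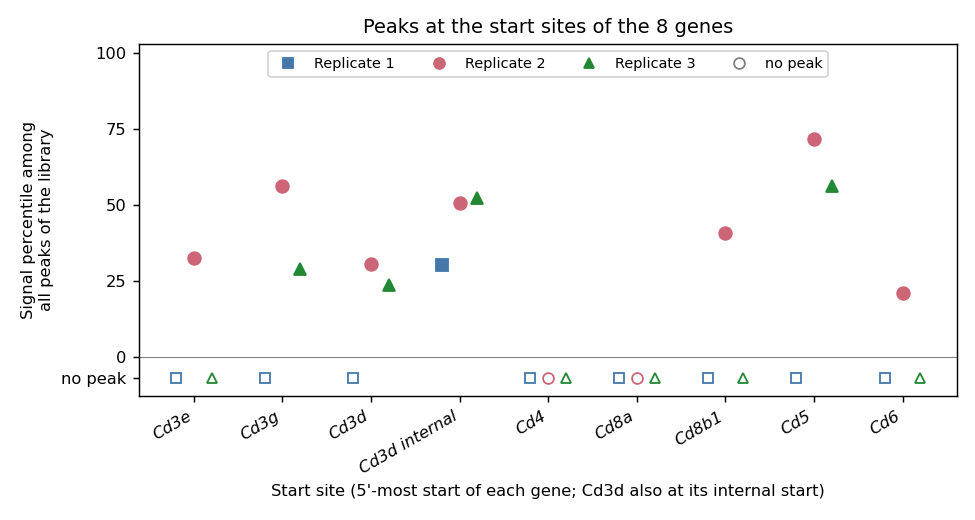
Signal percentile of the strongest peak at the 5′-most start of each gene, and at the internal start of Cd3d, among all peaks of the library (y axis), by start site (x axis) and replicate (symbols); hollow symbols mark no peak. Replicate 1 has a peak only at the internal start of Cd3d, and Cd4 and Cd8a have none in any replicate.

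In the Cd3 locus the promoter peaks were weak and differed between replicates. Cd3g (chromosome 9, 44969572 to 44980431) had promoter signals of 0.990 and 0.507 in replicates 2 and 3, at percentiles 56.1 and 28.7, and no peak in replicate 1. At the 5′ start of Cd3d (44981786 to 44987339) the signals were 0.502 and 0.448, at percentiles 30.4 and 23.4, again with none in replicate 1. Cd3e (44998740 to 45009627) had a promoter peak in replicate 2 alone, with a signal of 0.528 at percentile 32.6. The one promoter open in all 3 replicates was that of Cd3d, and this call rests on an annotated internal start 4037 bp downstream of the first. There the strongest signals were 0.720, 0.840 and 0.935, at percentiles 30.3, 50.6 and 52.1. They came from a pair of adjacent sites in coding exons, one with peaks in replicates 1 and 2 and the other in replicates 2 and 3, so that no single site there was shared by all 3. At the 5′-most start alone, 0, 6 and 3 of the 8 genes had a peak, beside 48%, 54.8% and 54.1% of all genes and 7.64%, 13% and 12.6% of CpG-poor genes.

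The bases of the 3 Cd3 promoter peaks that lie before the first annotated base of the gene are shown because these peaks were divided between replicates. Capitals mark the E-box letters CAGGTG, found on either strand, the core bound by E proteins that act in T cell development. Each is printed on the strand of its gene.
Cd3g, chr9:44980432-44980547 (-): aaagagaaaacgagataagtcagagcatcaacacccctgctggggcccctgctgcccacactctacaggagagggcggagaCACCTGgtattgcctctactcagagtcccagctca
Cd3d, chr9:44981663-44981785 (+): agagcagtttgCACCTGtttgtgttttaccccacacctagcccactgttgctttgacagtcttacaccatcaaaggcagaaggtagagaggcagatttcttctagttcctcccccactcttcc
Cd3e, chr9:45009628-45009744 (-): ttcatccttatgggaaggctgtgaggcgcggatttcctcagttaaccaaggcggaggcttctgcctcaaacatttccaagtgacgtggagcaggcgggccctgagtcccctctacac
The Cd3g and Cd3d stretches held 1 such E-box each, and the Cd3e stretch held none. The Cd3e promoter peak did hold these letters in the 150 bp around its middle, but not wholly inside the printed stretch. Stretches of the same length and place held one at 8.26%, 8.74% and 8.40% of all protein-coding genes, by the lengths for Cd3g, Cd3d and Cd3e.

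The strongest site of the Cd3 genes themselves lay at the far end of Cd3d. It covered 44986421 to 44986780 on chromosome 9, 4.82 kb downstream of the 5′ start, in the exon with the 3′ UTR. Its signals were 3.99, 8.04 and 11.6 in replicates 1, 2 and 3, at percentiles 86.6, 93.0 and 95.4 (mean 91.7 ± 4.54, SD, n = 3). Thus the 3′ end of Cd3d ranked far above each Cd3 promoter in every replicate. It held 4, 8 and 5 footprints, most of them short, and 10 of the 17 overlapped a footprint of another replicate. One that overlapped in all 3 replicates is shown in its widest form. It holds none of the exact RUNX, ETS (AGGAAG), E-box or Ikaros letters searched, so it has no capitals. Other forms of these sites were not searched, so it is not shown to lack them.
chr9:44986651-44986670 (+), 3′ exon of Cd3d: acaacttccgggattttgct
A weaker site 11.3 kb downstream of the Cd3e start was also found in all 3 replicates, at percentiles 18.5, 40.0 and 48.9. It held the RUNX letters TGTGGT and the E-box letters CAGCTG.

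The other strong sites of the Cd3 locus lay towards or beyond its edges. The promoter of Ube4a, a ubiquitin ligase gene next to Cd3g, had signals of 9.56, 26.4 and 27.6, at percentiles 98.5, 99.7 and 99.7. The site 13.4 kb downstream of the Cd3g start stood at 67.0, 85.9 and 81.6, and its 32 and 47 bp footprints are those of the sequence above. The site 13.4 kb upstream of Cd3e had no peak in replicate 1 and signals of 2.01 and 2.32 in replicates 2 and 3, at percentiles 74.2 and 75.6. With the Ube4a promoter set aside, the strongest peak of the locus fell to the mean percentile of the Cd3d 3′ site, 91.7.

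**Figure D2:**
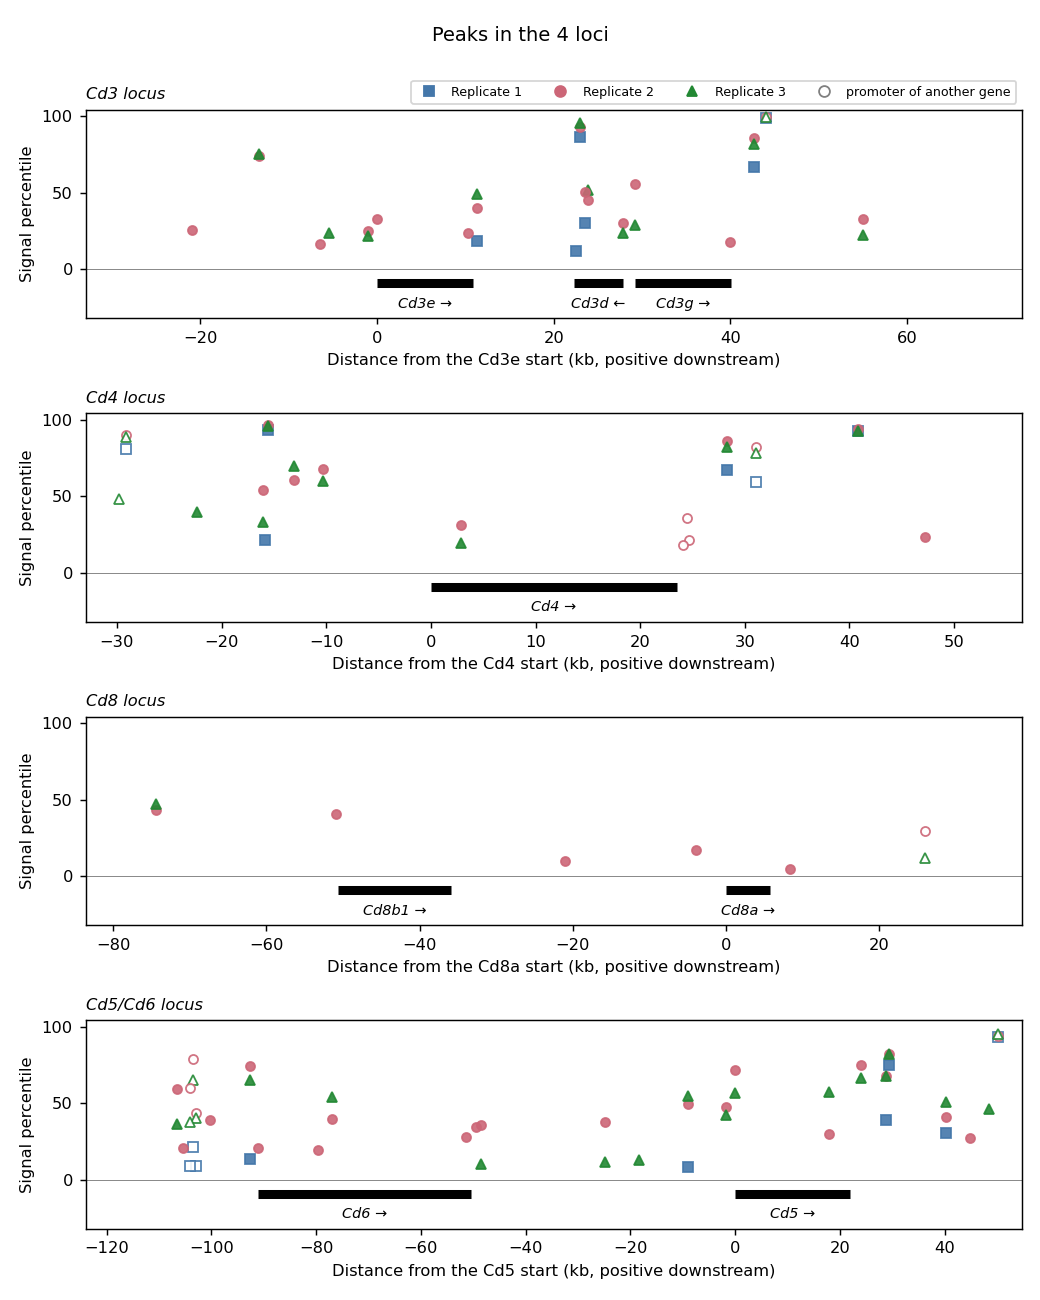
Peaks of each replicate (symbols) in the 4 loci, by distance in kb from the start of Cd3e, Cd4, Cd8a or Cd5 (x axis) and signal percentile in the library (y axis); black bars are the gene bodies with an arrow for the direction of transcription, and hollow symbols are peaks at the promoter of another gene. The sites found in all 3 replicates lie outside the 8 gene bodies, except for the one at the 3′ end of Cd3d, and the Cd8 locus has no peak of replicate 1.

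At Cd4 (chromosome 6, 124864692 to 124888221) neither the promoter nor the gene body held a peak that was found in all 3 replicates. No peak and no interval at an FDR of 0.05 or less touched the promoter in any library. Within the gene the only site was 2.88 kb downstream of the start, in an intron, with signals of 0.515 and 0.408 in replicates 2 and 3 (percentiles 31.5 and 19.7) and none in replicate 1. It held the TCF letters CTTTGA and the Ikaros letters TGGGAA, each present in 7.71% to 11.4% of all peaks of a library.

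Upstream of Cd4, sites away from promoters differed in their footprints. The site 15.5 kb upstream (124903641 to 124903860), between Cd4 and Lag3, had signals of 5.95, 12.2 and 12.0, at percentiles 93.2, 96.2 and 95.7 (95.0 ± 1.58). Its main footprint was 45, 42 and 43 bp wide in the 3 replicates and covered the CTCF letters each time. The site 10.3 kb upstream had no peak in replicate 1. Its signals in replicates 2 and 3 were 1.52 and 1.20, at percentiles 68.0 and 59.7. None of its footprints was wider than 12 bp, and 5 of 8 overlapped between replicates.

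This site is printed whole on the plus strand as an example of a site with narrow footprints that combined RUNX and ETS letters. RUNX factors are known to act at Cd4 in T cells. Capitals mark RUNX (TGTGGT), ETS (AGGAAG) and E-box (CAGGTG) letters on either strand.
chr6:124898401-124898620 (+), 10.3 kb upstream of Cd4: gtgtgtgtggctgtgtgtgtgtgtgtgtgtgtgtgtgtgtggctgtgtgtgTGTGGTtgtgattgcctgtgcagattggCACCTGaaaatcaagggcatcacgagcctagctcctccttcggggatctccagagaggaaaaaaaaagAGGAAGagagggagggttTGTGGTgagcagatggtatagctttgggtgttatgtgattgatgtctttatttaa
The letters are a description of the sequence. Whether this site is a known Cd4 element was not tested. On the side of the Cd4 3′ end, a site in an intron of P3h3 stood at percentiles 92.4, 94.0 and 92.7, and one in an intron of Gpr162 at 67.4, 86.3 and 82.2. Their CTCF-letter footprints were 44, 49 and 46 bp and 30, 31 and 32 bp wide. The other sites of the locus found in all 3 replicates touched the promoters of P3h3 and Ptms with their merged interval, at mean percentiles of 73.2 and 86.5. Peak by peak, the P3h3 promoter was reached in replicate 1 alone and the Ptms promoter in replicates 2 and 3 alone.

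The Cd8 locus was the least accessible of the 4. It held 0, 6 and 2 peaks in replicates 1, 2 and 3, and no site was found in all 3. At Cd8a (chromosome 6, 71373427 to 71379173) neither the promoter nor the gene body held a peak in any library. Cd8b1 (71322788 to 71337494) had a promoter peak in replicate 2 alone, with a signal of 0.645 at percentile 40.8, which also touches the promoter of Smyd1, a muscle gene that lies head to head with it. Between Cd8b1 and Cd8a the only sites were found in replicate 2, at 21.0 kb and 3.85 kb upstream of Cd8a, with percentiles of 9.96 and 17.2. The site 3.85 kb upstream held RUNX letters. A site 8.38 kb downstream of the Cd8a start, also of replicate 2 alone, stood at 4.91. The strongest site of the locus lay in an intron of Smyd1, 23.8 kb upstream of Cd8b1, with signals of 0.684 and 0.810 in replicates 2 and 3 (percentiles 43.0 and 47.3). Its 29 and 26 bp footprints are the only wide ones of the locus. At the edge of the window, a site at an annotated start of Rmnd5a stood at percentiles 29.9 and 12.1 in replicates 2 and 3. The strongest promoter peak of that gene lay beyond the window, at percentiles 94.6, 98.2 and 98.2.

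In replicates 2 and 3, the Cd5 promoter had the highest peak percentile of the 8 genes' promoters. Cd5 (chromosome 19, 10717116 to 10739002) had promoter signals of 1.77 and 1.07 in replicates 2 and 3, at percentiles 71.6 and 56.3, and no peak in replicate 1. Cd6 (10789341 to 10830058) had a weak promoter peak in replicate 2 alone, with a signal of 0.404 at percentile 20.9. The Cd5 stretch before the first annotated base is shown because its promoter ranked highest in those replicates, with ETS (AGGAAG) and E-box (CAGGTG) letters in capitals.
Cd5, chr19:10739003-10739160 (-): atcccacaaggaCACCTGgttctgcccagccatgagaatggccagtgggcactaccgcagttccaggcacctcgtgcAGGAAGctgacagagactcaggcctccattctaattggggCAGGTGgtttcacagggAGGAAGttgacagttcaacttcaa
It held 2 of each. Stretches of this length before the first base held E-box letters at 11.3% and ETS letters at 20% of all protein-coding genes.

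Away from promoters, the sites of this locus shared by all 3 replicates lay in Vps37c, between Cd5 and Cd6, and just upstream of Cd6. The Vps37c intron site 29.5 kb downstream of the Cd5 start had signals of 2.25, 3.07 and 3.40, at percentiles 75.0, 82.2 and 82.2. Its footprint, 42, 44 and 44 bp wide, held CTCF and RUNX letters in every replicate. Neighbouring intron sites 28.8 kb and 40.4 kb downstream of the Cd5 start had mean percentiles of 58.2 and 40.8. Between the 2 genes, a site 8.91 kb upstream of Cd5 stood at percentiles 8.16, 49.4 and 54.3. The site 1.58 kb upstream of Cd6 stood at 13.2, 74.1 and 65.4, well above the Cd6 promoter in replicate 2. At the neighbours' promoters, Vps37c stood at percentiles 93.0, 93.9 and 94.8. The 3 sites at the promoter of Slc15a3, a peptide transporter gene, had mean percentiles of 30.9 to 55.1.

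Counted over the windows, the loci held 21, 59 and 44 peaks in replicates 1, 2 and 3. That is 4.44, 12.5 and 9.30 peaks per 100 kb, against 3.05, 6.09 and 5.86 for the median protein-coding gene with the same flanks. At least 1 peak lay in the window of 6, 8 and 8 of the 8 genes, beside 76.1%, 83.5% and 83.3% of all genes. Peak density put the Cd3 locus at percentiles 72.2, 88.4 and 75.0 among all genes, Cd4 at 78.3, 87.4 and 82.1, and Cd5/Cd6 at 67.4, 83.4 and 77.1. Cd8 stood at 11.9, 44.8 and 26.3. The windows of 3 loci were thus denser in peaks than those of most genes in every replicate, while that of Cd8 was sparser. Taken alone, Cd5 had 5, 11 and 13 peaks in its window and Cd6 had 4, 14 and 8.

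**Figure D3:**
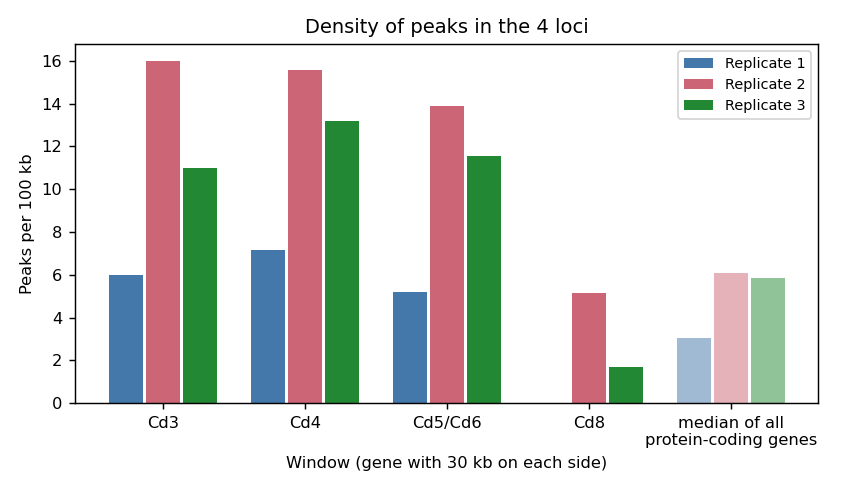
Peaks per 100 kb (y axis) in the windows of the 4 loci and for the median protein-coding gene (x axis), with a bar per replicate. Cd3, Cd4 and Cd5/Cd6 stand above the median gene in every replicate and Cd8 below it.

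Merged over replicates, the peaks formed 66 sites, of which 18 (27.3%) were found in all 3 replicates, beside 35.3% of all merged sites. Replicate 2 alone held 20 of the 66 (30.3%), beside 17% of all sites. Replicate 3 alone held 5, beside 14.1%, and replicate 1 alone held 2, beside 2.66%. Of the 66, 12 touched promoters of neighbouring genes with their merged interval, and 7 of these were found in all 3 replicates. Of the 8 sites at member promoters 0 were. In the whole libraries 35.3% of all sites but 27.9% of those away from promoters were in all 3, so promoter sites stood above 35.3%. The 7 of 12 is therefore not read as a trait of these neighbours. Of the 46 sites away from promoters 11 (23.9%) were in all 3, beside 27.9% of such sites, and 14 (30.4%) in replicate 2 alone, beside 19.3%. Of the 45 sites without a peak in replicate 1, 3 held an interval at an FDR of 0.05 or less there. Replicate 1 also held fewer than 50% of the peaks of each other library, and whether its gaps come from depth was not tested.

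**Figure D4:**
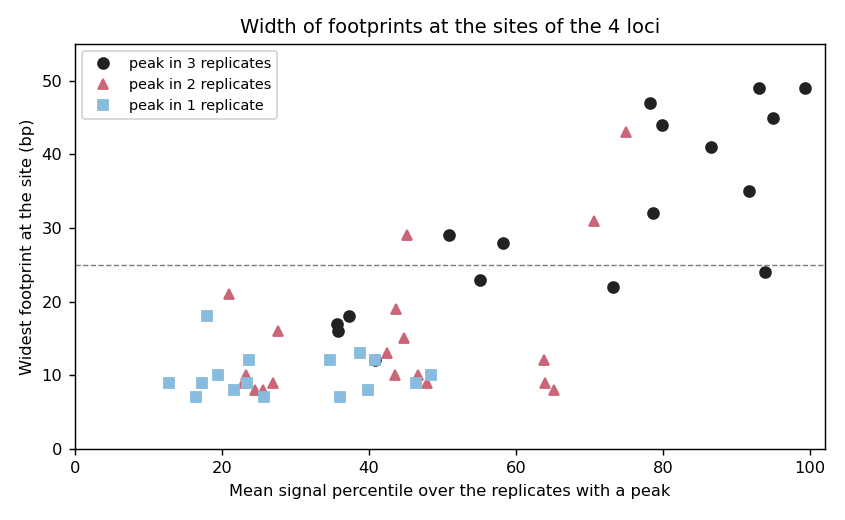
Widest footprint in bp (y axis) against the mean signal percentile (x axis) at the 52 sites of the 4 loci with a footprint, by the number of replicates with a peak (symbols); the dashed line marks 25 bp. Footprints of 25 bp or more occur at 10 of 17 sites found in all 3 replicates, 3 of 19 found in 2 and 0 of 16 found in 1.

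At these loci, much as in the whole libraries, wide footprints were called again in other replicates, and many narrow ones were not. The windows held 43, 153 and 117 footprints in replicates 1, 2 and 3, with median widths of 11, 10 and 10 bp. Of these 9, 20 and 19 were 25 bp or wider (20.9%, 13.1% and 16.2%, beside 8.45%, 11.8% and 11.4% of all footprints). Every one of the wide footprints in the loci overlapped a footprint of another replicate, beside 100%, 98.3% and 99.2% of wide footprints in the whole libraries. Of the shorter ones 85.3%, 42.1% and 55.1% did, beside 73.0%, 52.2% and 57.5%. Narrow footprints were thus shared more than in the library in replicate 1 and less in replicates 2 and 3. CTCF letters lay in 5 of 9, 6 of 20 and 6 of 19 wide footprints of the loci, beside 22.3%, 22.0% and 21.5% of all wide ones and 3.96%, 2.97% and 3.03% of shorter ones. A wider footprint has more room for any letters and for overlap with another footprint. At the 4 member promoter sites with footprints none was wider than 13 bp, and 2 of 17 overlapped between replicates.

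Among the sequence letters searched, RUNX letters lay in 30.5% and 29.5% of the loci's peaks in replicates 2 and 3, beside 17.6% and 19.2% of all peaks. In replicate 1 they lay in 4 of 21 (19.0%), beside 14.9%. The E-box CAGCTG lay in 19.0%, 22.0% and 15.9% of the loci's peaks, beside 10.3%, 11.3% and 11.1%. ETS letters lay in 14.3%, 28.8% and 22.7%, beside 23.3%, 27.0% and 26.5%, so they stood below the libraries' share in replicates 1 and 3. The TCF letters CTTTGA lay in 0, 8 and 6 peaks of the loci (0%, 13.6% and 13.6%), beside 7.71%, 8.87% and 9.02% of all peaks. CTCF letters, at 38.1%, 23.7% and 22.7%, stood above the libraries' share in replicate 1 (25.8%) and near it in replicates 2 and 3 (22.7% and 22.4%). T-box letters GGTGTGA, of the factors Eomes and T-bet, lay in 0%, 3.39% and 4.55% of the loci's peaks, beside 3.35%, 3.30% and 3.93% of all peaks.

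Replicates 2 and 3 have similar numbers of peaks but differed in number at these loci. The loci held 1.34 times as many peaks in replicate 2 as in replicate 3, against 1.03 times over the whole libraries. The window of Cd5 went the other way, with 11 peaks in replicate 2 and 13 in replicate 3. Of the 38 sites found in both, 24 were higher in replicate 2 after log2 signal was centred on all sites found in both, beside 50% of those sites, and 15 of the 26 away from promoters, beside 50.4%. The median difference over the 38 was 0.14. Single sites found in both had quartiles of -0.30 and 0.27, which do not measure the spread of a median over 38 sites. The Cd3g and Cd5 promoters were higher in replicate 2, by 0.98 and 0.75 (log2). The 3′ site of Cd3d went the other way, at -0.51. Within gene bodies, the intron site of Cd5 with RUNX and T-box letters stood at -1.13 and a Cd6 intron site with GATA and T-box letters at -0.63, while the Cd4 intron site stood at 0.35.

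Marker lists were read at the same promoters, because the labels name no sort. The 8 genes had summed promoter percentiles of 30.3, 272 and 137 in replicates 1, 2 and 3. They were highest in replicate 2, as were those of the B cell, erythroid and innate lymphoid lists, while those of the natural killer, T cell pathway and monocyte, macrophage or dendritic cell lists were highest in replicate 3. Promoters of 12 natural killer genes were open in 8, 11 and 12 cases. Their summed percentile was 539, 756 and 900, and 0 of 11 open in both were higher in replicate 2 than in replicate 3 (median log2 difference -0.95). Promoters of 12 B cell genes were open in 7, 11 and 10 cases, with summed percentiles of 219, 886 and 695, and 10 of 10 open in both were higher in replicate 2 (median 1.01). Vpreb3 of this list was open in no replicate. Other lists were open in 5, 7 and 7 of 12 monocyte, macrophage or dendritic cell genes, 1, 2 and 2 of 6 erythroid genes and 2, 3 and 3 of 6 innate lymphoid genes. Csf1r, Adgre1, C1qa and Xcr1 had no promoter peak in any replicate, nor had Il23r and Il1rl1 of the innate lymphoid list or Hbb-bt, Hba-a1, Alas2 and Klf1 of the erythroid list. The part that other cells play in the member values was not tested. In bulk libraries, fewer cells with an open site cannot be told apart from a site less open in each cell.

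**Figure D5:**
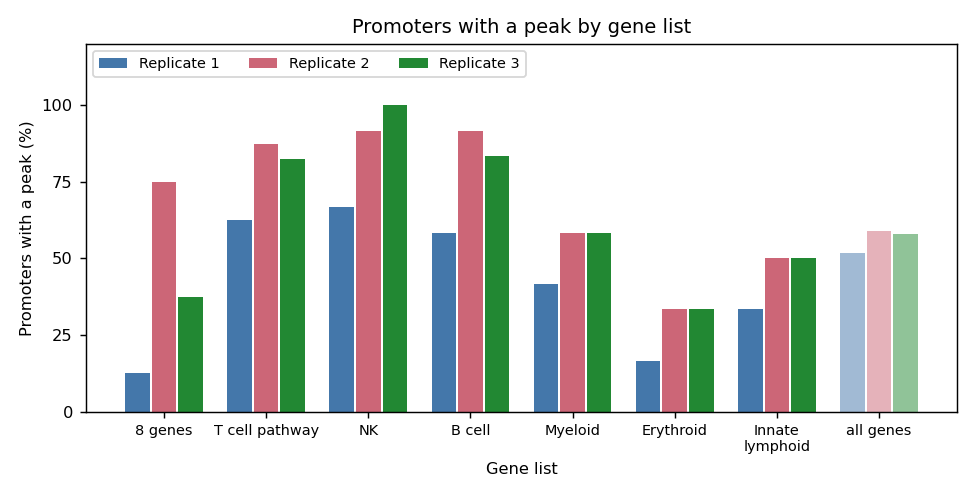
Share of promoters with a peak in % (y axis) by gene list (x axis; myeloid stands for monocyte, macrophage or dendritic cell), with a bar per replicate; the pale bars are all protein-coding genes. The 8 genes have 1, 6 and 3 of 8 open, and the 40 genes of the T cell pathway 25, 35 and 33.

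The 8 genes stood beside a T cell pathway whose promoters were mostly open. In all 3 replicates 1 of the 8 was open, against 25 of 40 genes for signalling proteins, co-stimulators and transcription factors of T cells, of which 25, 35 and 33 were open in replicates 1, 2 and 3. Of all protein-coding genes 51.3% were open in all 3, and of CpG-poor genes 13.9%. The median CpG ratio at the 5′-most start was 0.280 for the 8 genes and 0.292 for the 40. Openness counted any annotated start, and the lists were not matched gene by gene. The highest of the 40 were Zbtb7b, which directs the CD4 lineage, at a mean percentile of 96.2 ± 0.528 (SD, n = 3), Runx3 at 94.7 ± 2.43, Fyn at 94.3 ± 1.86, Runx1 at 92.9 ± 3.99 and Grap2 at 87.5 ± 7.06. The kinase Lck, which binds CD4 and CD8, stood at 62.9, 80.0 and 83.4, and Cd247, the zeta chain, at 44.9, 71.2 and 79.8. Both were chosen by role after their values were seen. No promoter peak was found in any replicate at Ptcra, Trat1, Rag1, Rag2 and Cd40lg. Of the 3 member promoters open in replicates 2 and 3, 2 were higher in replicate 2, against 7 of 33 in the pathway, whose median difference was -0.24.

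By promoter percentile over the 3 replicates, the genes of the T cell, B cell and natural killer lists most like each member were found by Euclidean distance over 64 genes. Of the 64, 40 came from the T cell pathway list, so near genes of that list are not read as a likeness to T cells. A promoter without a peak was scored as percentile 0, so the distance depends strongly on which replicates lack a peak. Nearest to Cd5 was Il7r, the interleukin-7 receptor, at a distance of 4.73, with percentiles of 67.8 and 53.5 in replicates 2 and 3. Cd72 (8.30) and Klrd1 (12.3) followed. Nearest to Cd3g was Themis, a T cell signalling protein, at 4.76, then the B cell genes Cd22 (15.2) and Fcer2a (19.6). Cd6 was nearest to Foxp3 (3.63), then to Cd40lg and Ptcra (20.9 each), which had no promoter peak in any replicate. Cd3e was nearest to Foxp3 (15.4), Tcf7 (20.6) and Thy1 (24.8). Near to Cd8b1 were Tcf7 (12.4) and Foxp3 (23.5), both open in replicate 2 alone. Cd3d, by its internal start, was nearest to Sh2d1a (13.9), Ubash3a (16.1) and Klre1 (16.1). Cd4 and Cd8a, with a promoter peak in no replicate, were not compared.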

How the data were processed

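DNase-seq files of 3 libraries were used. The authors called peaks on mm10 in each library and deposited a signal per peak with no stated scale, per the file descriptions. The callers are not given in the sources. Of 2 deposited peak lists per library the longer is used; the shorter ones hold 28307, 61718 and 60011 peaks. The footprints called by the authors in each library were deposited with a constant score of 0.01. The q-value (FDR) of the cut rate was computed by the authors from the alignments and deposited for intervals up to 0.05. Here, signal was ranked within each library, the best rank being percentile 100 (python 3.11.15, pandas 2.3.3; overlaps were checked with bedtools 2.31.1, with 0 differences). A peak or footprint belongs to a window by its middle. Motif letters were searched in the 150 bp around a peak's middle, and in footprints where 50% or more of the letters lay inside. CpG ratios are of the 5′-most promoter. Reference sequence is RefSeq's GRCm38.p6. Scripts were tested on simulated data. The members and lists were chosen with earlier results of these data known. Named were all members, neighbours with an open promoter, up to 5 genes at either end of a list, the 3 strongest sites of a locus, sites at member promoters and sites in all replicates. Alternatives were promoter width, peak list, flank, better-scoring peaks, and each replicate left out. With 3 replicates the smallest p of an exact sign-flip test is 0.25, so none is given. A few items are not reported here.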

Additional observations from a re-analysis of the deposited data

How the results depend on the processing

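No paired analysis was possible because there is 1 group. The count of 1 open member promoter in all 3 replicates became 6 with a peak in at least 1 replicate and 0 at the 5′-most start alone, and ranged from 1 to 3 with a replicate left out. The count of 6 open in at least 1 replicate ranged from 3 to 6. The setting at the 5′-most start, and the alternatives to the count in at least 1 replicate, were chosen after seeing the data. The mean of 41.3 peaks in the windows was 25 with flanks of 10 kb and 18.7 with the better-scoring 50% of peaks. The mean of 104.3 footprints was 59.0 and 164.7 with flanks of 10 and 50 kb. The strongest percentile moved at Cd3 (99.3) to 91.7 without neighbours' promoters. At Cd4 (95.0) it moved to 93.0 with the shorter list, 78.6 with 10 kb and 99.4 with 50 kb. At Cd8 (45.2) it moved to 26.5 with the shorter list and 40.8 with 10 kb. At Cd5/Cd6 (93.9) it moved to 91.5 with the shorter list, and to 79.8 with 10 kb or without neighbours' promoters. The cause was not tested beyond what each setting removes. Beside the background, 1 of 8 lay below 51.3% of all genes but near 13.9% of CpG-poor genes. The 6 of 8 in at least 1 replicate lay not far from 60.4% of all genes and above 22.1% of CpG-poor genes. With 8 genes, each gene moves these shares by a large step. The median difference of 0.14 between replicates 2 and 3 had 1 alternative, with neighbours' promoters, which gave 0.14. Unknown depth leaves an absent peak undetected rather than absent.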
